A study of Mus musculus with 6 samples.

Results

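The genes described here are 10 regulators that set heart muscle and ventricular identity: Gata4, Gata6, Nkx2-5, Tbx5, Tbx20, Hand1, Hand2, Irx4, Hey2 and Myocd. They were chosen by name, and all 10 were found among the 35976 genes of the count table. RNA came from hearts of wild-type mice in 2 groups of 3 libraries. The edited group received an adeno-associated virus in which a MYL2 promoter, active in heart muscle, drives TadA8e, an evolved adenine deaminase, together with a Cas9 named Sauri, and in which a U6 promoter drives sgRNA7, a guide against the donor splice site of Camk2d intron 7. The control group was untreated, so virus, editor and edit were absent from it together. Age, sex, viral dose, the time between injection and harvest and the heart region are not in the labels, which also do not say that each replicate was a separate animal. The p-values below measure the spread between these libraries.

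Heart muscle identity rests on a small set of transcription factors that bind DNA together at shared enhancers. Zinc-finger GATA factors, the homeodomain protein Nkx2-5 and T-box proteins form the core. The basic helix-loop-helix proteins Hand1 and Hand2 act in chamber growth, and Irx4 and Hey2 hold ventricular muscle apart from atrial muscle. Myocd encodes myocardin, which does not bind DNA by itself and activates muscle genes through serum response factor. All of them are best known from the embryo, and many stay on in adult heart muscle.

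Of the 9 factors with enough counts to be tested, Hand2 and Myocd were lower in edited hearts and Hey2 was higher. Gata4, Gata6, Nkx2-5, Tbx20, Tbx5 and Irx4 did not pass the threshold, set at a Benjamini-Hochberg adjusted p of 0.05 from edgeR (quasi-likelihood). Hand1 was too scarce to be tested, with 0 counts in every control and a few in every edited library. Among all 14879 tested genes, 4.93% were called higher and 4.74% lower. The 3 calls among 9 factors are read against 9.66% in either direction, and none of the 3 held in every alternative fit. The median log2 change of the 9 factors was -0.12, beside 0.00 over all tested genes. Libraries held 17062412 to 23097998 counts.

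For Hand2 and Hey2, the called factors with an entry in the RefSeq promoter table (GRCm38.p6, the assembly of mm10), the 250 bases before the transcription start are shown, because their levels moved in opposite directions. Entries were found for 5 of the 10 factors: Hand2, Hey2, Nkx2-5, Irx4 and Tbx20. Hand2 is on the plus strand at chr8:57320733-57320982, and Hey2 is on the minus strand at chr10:30842784-30843033. Capitals mark matches on either strand to GATAA, the core that GATA factors bind, and to TGGGAA, the core that the Notch effector RBPJ binds.
Hand2: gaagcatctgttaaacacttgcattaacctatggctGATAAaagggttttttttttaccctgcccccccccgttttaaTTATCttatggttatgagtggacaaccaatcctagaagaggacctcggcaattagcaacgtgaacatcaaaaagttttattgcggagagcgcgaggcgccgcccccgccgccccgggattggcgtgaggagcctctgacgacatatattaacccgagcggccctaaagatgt
Hey2: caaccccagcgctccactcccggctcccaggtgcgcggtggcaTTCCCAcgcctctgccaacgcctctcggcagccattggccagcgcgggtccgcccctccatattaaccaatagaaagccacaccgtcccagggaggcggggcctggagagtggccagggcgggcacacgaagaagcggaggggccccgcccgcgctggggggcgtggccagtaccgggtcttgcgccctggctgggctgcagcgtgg
The Hand2 window held 2 GATAA matches, at positions -214 to -210 and -172 to -168 counted from the transcription start, the second of them on the opposite strand. It held 0 TGGGAA matches. The Hey2 window held 1 TGGGAA match, at positions -207 to -202 on the opposite strand, and 0 GATAA matches. Of 32851 promoter windows of the same length, 22.6% hold GATAA and 21.6% hold TGGGAA. The other letters searched were AAGTG for NK2 homeodomain proteins (in 40.7% of windows), GGTGT for T-box proteins (36.2%), CANNTG, the E-box of helix-loop-helix proteins (66.2%), and the CArG box of serum response factor (1.5%). Hand2 held 1 AAGTG, which overlaps 1 of its 2 E-boxes, and Hey2 held 1 GGTGT and 1 E-box. Irx4 held 1 GGTGT, Nkx2-5 held 1 E-box and 1 TGGGAA, and Tbx20 held none of the 6 motifs. These matches describe the letters of the windows only.

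Camk2d, the targeted gene, was at 226, 220 and 224 CPM in controls 1, 2 and 3 and at 138, 130 and 164 CPM in edited 1, 2 and 3, where CPM are counts per 1000000 after TMM normalization. The groups did not overlap, with a log2 change of -0.63 (SE 0.07, adjusted p = 4.76e-04). In an exact two-sided permutation test p was 0.1, the smallest that 3 against 3 allows. With control 2 as the only control, Camk2d had an adjusted p of 0.0569, and the alternatives as a whole gave 3.13e-19 to 0.0569. The libraries also differed in tissue makeup. Myl7, an atrial myosin light chain, was at 6.88, 332 and 0.209 CPM in controls and at 542, 371 and 914 CPM in edited hearts, so control 2 was the control nearest the edited hearts, though below each of them. Summed over the 9 atrial markers, the level ran from 82.0 to 2065 CPM in controls and from 1338 to 2930 CPM in edited hearts. Of the 8 tested atrial markers 2 were higher and 0 lower in edgeR, with the same counts at an unadjusted p under 0.05 and with DESeq2 and voom. The number higher was 5 without control 2, where 1290 of all genes passed. It was 1 without control 1, control 3 or edited 3, where 850, 446 and 728 of all genes passed, against 1438 with all libraries. Control 1 was also the library with Xist at 574 CPM, against at most 1.10 CPM in the other 5. The Y-linked genes Eif2s3y, Uty and Kdm5d were at 0 CPM in control 1. In the other 5 they were at 84.9 to 95.6, 23.9 to 30.5 and 21.2 to 25.1 CPM. By these genes control 1 was female and the other 5 libraries male, so the control group was mixed in sex and the edited group was not. Sex was not a term in the fits. A heart sample is a mixture of cells, so fewer cells of a type and less RNA per cell cannot be told apart in any result here.

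Levels between genes are comparable per length, as CPM per kilobase of exon. In controls Gata4 was the highest at 56.0 ± 1.82 CPM per kilobase (SD, n = 3). Tbx20 followed at 45.8 ± 6.05, Nkx2-5 at 44.6 ± 3.08 and Gata6 at 39.4 ± 2.37 CPM per kilobase. The ranges of Tbx20 and Nkx2-5 overlapped, and so did those of Nkx2-5 and Gata6. Hand2, at 28.0 ± 3.26, and Myocd, at 25.5 ± 2.54 CPM per kilobase, overlapped as well. Irx4 was at 13.1 ± 1.12, Tbx5 at 5.53 ± 2.48 and Hey2 at 3.11 ± 0.328 CPM per kilobase, with ranges apart from each other, and Hand1 was at 0. The order of the 10 means was the same in edited hearts, from Gata4 at 53.7 ± 0.287 to Hand1 at 0.166 ± 0.049 CPM per kilobase. There Myocd, at 16.8 ± 2.78 CPM per kilobase, no longer overlapped Hand2 at 22.2 ± 1.69, and its range met that of Irx4 at 14.0 ± 0.954. The plot of levels by library shows these values gene by gene, not per length.

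**Figure D1:**
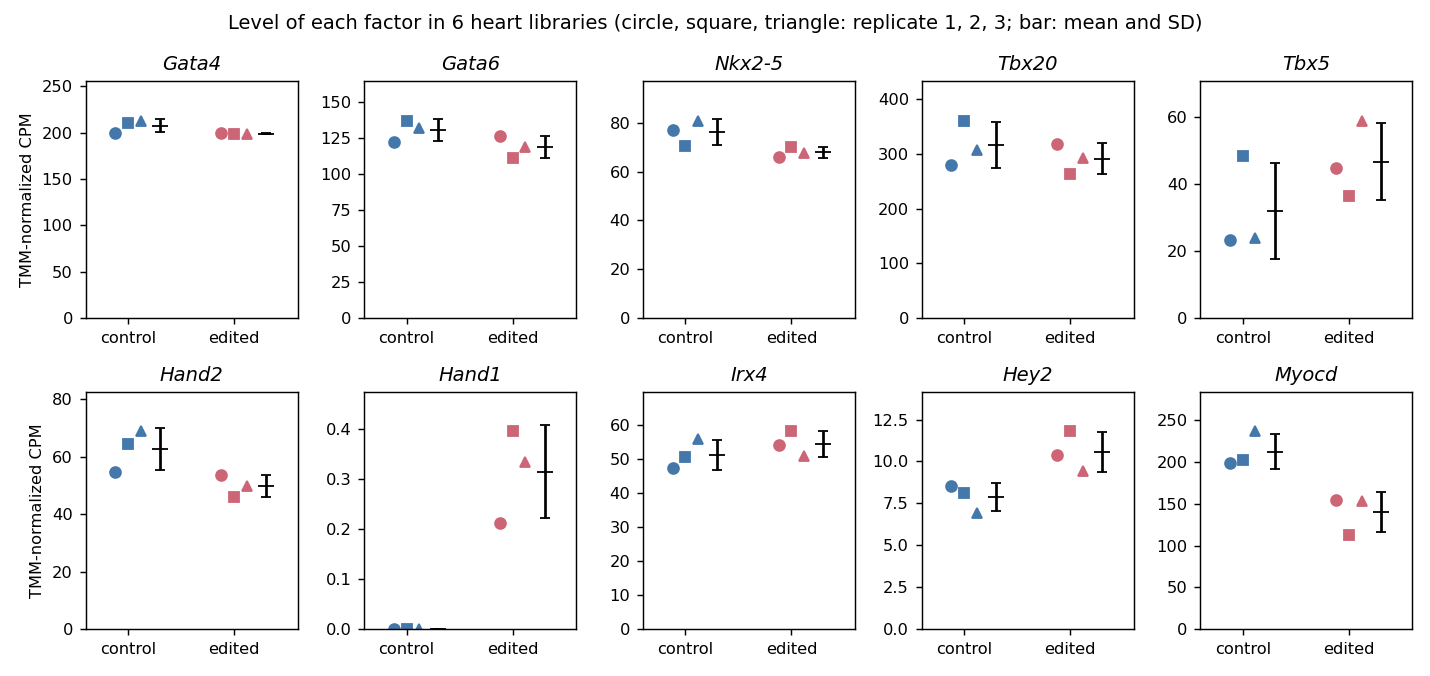
TMM-normalized CPM (vertical axes, each from 0) of the 10 factors in 3 control and 3 edited libraries, with the mean and SD as bars beside the points. Gata4 lies between 198 and 213 CPM in all 6 libraries, Myocd is lower and Hey2 higher in every edited library, and Hand1 is at 0 in every control.

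Gata4 varied little between libraries. This zinc-finger factor lies on chromosome 14 from 63198914 to 63271715 (mm10, minus strand). It was at 200.1, 210 and 213 CPM in controls and at 200.1, 199 and 198 CPM in edited hearts. The groups touched at their edge, and the log2 change was -0.06 (SE 0.05, adjusted p = 0.507). At ±2 SE the edited level was 89.4% to 103% of the control level.

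Gata6, the related GATA factor of heart and endoderm (chromosome 18, 11052510 to 11085636), was at 122, 137 and 132 CPM in controls and 126, 111 and 119 CPM in edited hearts. The groups overlapped through edited 1 and control 1, and the log2 change was -0.14 (SE 0.06, adjusted p = 0.195). Gata6 shares 1.8% of its exon bases with 1010001N08Rik on the opposite strand, with 11.2 ± 0.442 CPM in control and 10.4 ± 1.79 CPM in edited libraries (SD, n = 3). No exon overlap with a different gene was found for the other 9 factors, by the exon positions deposited with the counts. The ratio of Gata4 to Gata6 per length was 1.47, 1.37 and 1.44 in controls and 1.42, 1.61 and 1.49 in edited hearts. This is a difference of 0.08 on the log2 scale, with p = 0.4 in an exact two-sided permutation test (0.4 adjusted over the 2 ratios tested).

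Nkx2-5, the NK2 homeodomain factor of the early heart field (chromosome 17, 26838664 to 26844995, minus strand), was at 77.0, 70.5 and 80.9 CPM in controls. In edited hearts it was at 65.8, 70.1 and 67.8 CPM. Every edited library was below every control, with edited 2 just under control 2. Of all tested genes, 14.7% had edited values wholly below the controls and 14.6% wholly above. The log2 change was -0.16 (SE 0.06) and did not pass the threshold (adjusted p = 0.121; alternatives: 0.0325 to 0.886). It passed with limma voom, and with control 2 as the only control the log2 change was -0.05.

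Of the T-box factors, neither Tbx20 nor Tbx5 passed the threshold. Tbx20 acts both as activator and repressor in adult heart muscle (chromosome 9, 24720812 to 24774303, minus strand). It was at 279, 361 and 308 CPM in controls and at 319, 263 and 292 CPM in edited hearts. The groups overlapped, with a log2 change of -0.12 (SE 0.10, adjusted p = 0.559).

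Tbx5, a T-box factor with a strong role in the atria and the conduction system (chromosome 5, 119796514 to 119885220), was at 23.4, 48.5 and 24.0 CPM in controls and at 44.8, 36.4 and 59.0 CPM in edited hearts. Controls 1 and 3 were low, while control 2 lay among the edited hearts. The fitted log2 change of 0.54 had an SE of 0.40 and an adjusted p of 0.499 (alternatives: 0.0896 to 0.975). The smallest of these came without control 2, where the log2 change was 0.98. Controls 1 and 3 were also the libraries with the least Myl7. Dkk3, another atrial transcript, was at 19.7, 111 and 23.6 CPM in controls and at 102, 108 and 144 CPM in edited hearts, and neither Dkk3 (adjusted p = 0.457) nor Myl7 (0.556) passed. Without control 2, Dkk3 passed, with a log2 change of 2.44 and an adjusted p of 0.00496. With Myl7 as a covariate the log2 change of Tbx5 was -0.07, and with control 2 as the only control it was -0.05. The part of atrial tissue in the level of Tbx5 was not tested. The ratio of Tbx5 to Tbx20 per length was 0.10, 0.16 and 0.0929 in controls and 0.167, 0.165 and 0.241 in edited hearts, a log2 difference of 0.72. That test gave p = 0.1, the smallest an exact permutation test of 3 against 3 can give (0.2 adjusted over the 2 ratios).

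**Figure D2:**
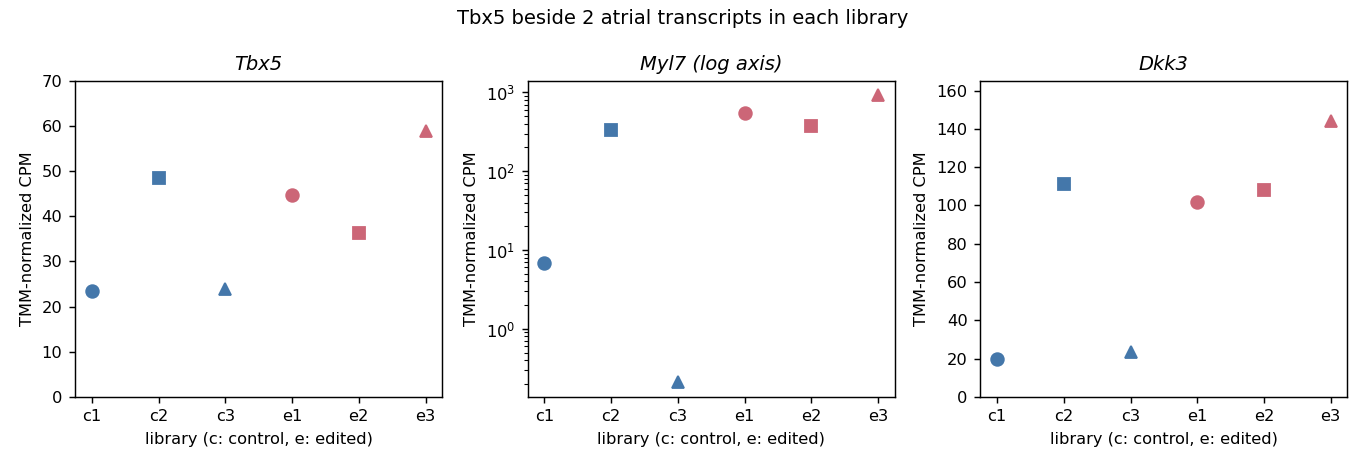
TMM-normalized CPM of Tbx5, Myl7 (log axis) and Dkk3 in each library (c: control, e: edited, with the replicate number). Controls 1 and 3 are the lowest libraries in all 3 panels, with Tbx5 at 23.4 and 24.0 CPM, and control 2 sits among the edited hearts for Tbx5 and Dkk3 and just below them for Myl7.

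Hand2, a helix-loop-helix factor of the developing right ventricle that adult heart tissue still makes, was lower in edited hearts. It lies on chromosome 8 from 57320983 to 57324517 (plus strand), just after the window with the 2 GATAA matches. Controls were at 54.7, 64.4 and 68.9 CPM and edited hearts at 53.5, 45.9 and 49.8 CPM. The groups did not overlap, though edited 1 was close to control 1. The log2 change was -0.33 (SE 0.09, adjusted p = 0.0309), which leaves 79.4% of the control level, with 70.5% to 89.3% at ±2 SE. Hand2 no longer passed when control 2 (adjusted p 0.0818), control 3 (0.149), edited 2 (0.0739) or edited 3 (0.0959) was left out. With Myl7 as a covariate its log2 change was -0.29, at an adjusted p of 0.359, and the alternatives spanned 6.62e-05 to 0.359.

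Hand1, the left-ventricular counterpart of Hand2 in the embryo (chromosome 11, 57828713 to 57832147, minus strand), had 0, 0 and 0 counts in controls and 5, 7 and 6 counts in edited hearts. Summed over each group this is 0 counts of 56321784 against 18 of 57713360. A count of 0 allows up to 3 counts over the control group, or 0.0533 CPM without TMM scaling, against 0.312 CPM in edited hearts. Against that limit Hand1 was at least 5.86-fold higher in edited hearts, with the 18 counts taken as they stand. The 95% exact Poisson interval of the 18 counts is 10.7 to 28.4, and its lower end would make it 3.47-fold. With no filter on low counts, edgeR gave an adjusted p of 6.8e-04, and the fitted change then depends on the prior count. Of 12846 genes at 0 in every control, 3 had at least 5 counts in every edited library, 0.0234%. They were Hand1, Cdh12 and Kndc1. That minimum was set at Hand1's own lowest edited count, so it describes how rare the pattern is and tests nothing. In the other direction, 0 of 12124 genes at 0 in every edited library had at least 5 counts in every control. A ratio of Hand2 to Hand1 was not computed, since it has no value where Hand1 is 0.

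Irx4, an Iroquois homeodomain factor that keeps ventricular muscle ventricular (chromosome 13, 73259590 to 73269622), was at 47.2, 50.5 and 55.9 CPM in controls and 54.2, 58.1 and 50.7 CPM in edited hearts. The groups overlapped, with a log2 change of 0.08 (SE 0.07, adjusted p = 0.523). It was among the lower factors per length, and its ±2 SE range was 95.9% to 117% of the control level. Of the ventricular markers, 3 of 5 tested were lower: Pln, Fhl2 and Myl3. The markers Pln, Myl3 and Myl2 are also among the 22 muscle target genes counted below. The number lower was 5 without control 2, where 1290 of all genes passed. It was 2 without control 1, control 3 or edited 3 (850, 446 and 728 genes in all). With Myl7 as a covariate it was 1 (126 in all), against 1438 genes passing with all libraries. The summed ventricular level was 17346 to 19585 CPM in controls and 14932 to 15542 CPM in edited hearts.

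Hey2, a helix-loop-helix repressor and Notch target of the compact ventricular wall, was higher in edited hearts (chromosome 10, 30832359 to 30842783, minus strand). Controls were at 8.55, 8.11 and 6.94 CPM, and edited hearts at 10.4, 11.8 and 9.44 CPM. Each edited library was above each control, on 133 to 154 counts per control library and 169 to 245 per edited library. The log2 change was 0.43 (SE 0.12, adjusted p = 0.0378), or 134% of the control level with 114% to 159% at ±2 SE. Leaving out any one library except edited 3 ended the call, with adjusted p of 0.0579, 0.065 and 0.194 for controls 1, 2 and 3 and of 0.0546 and 0.0911 for edited 1 and 2. DESeq2 gave 0.0905. The alternatives spanned 0.00657 to 0.461, the last with Myl7 as a covariate, where the log2 change was 0.34.

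Myocd had the largest fitted fall of the 9 tested factors (chromosome 11, 65173608 to 65269989, minus strand). It was at 199, 202 and 237 CPM in controls and at 155, 113 and 153 CPM in edited hearts. The highest edited library was well below the lowest control, and edited 2 was the lowest. The log2 change was -0.60 (SE 0.14), which leaves 65.9% of the control level, with 54.4% to 79.7% at ±2 SE. Its adjusted p of 0.0485 lies just inside the threshold. Only edited 2 could be left out with the call kept. The adjusted p was 0.0987, 0.0977 and 0.106 without controls 1, 2 and 3, and 0.0765 and 0.06 without edited 1 and edited 3. It was 0.0858 with no filter. The alternatives spanned 0.00167 to 0.408, the last with Myl7 as a covariate and a log2 change of -0.50.

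**Figure D3:**
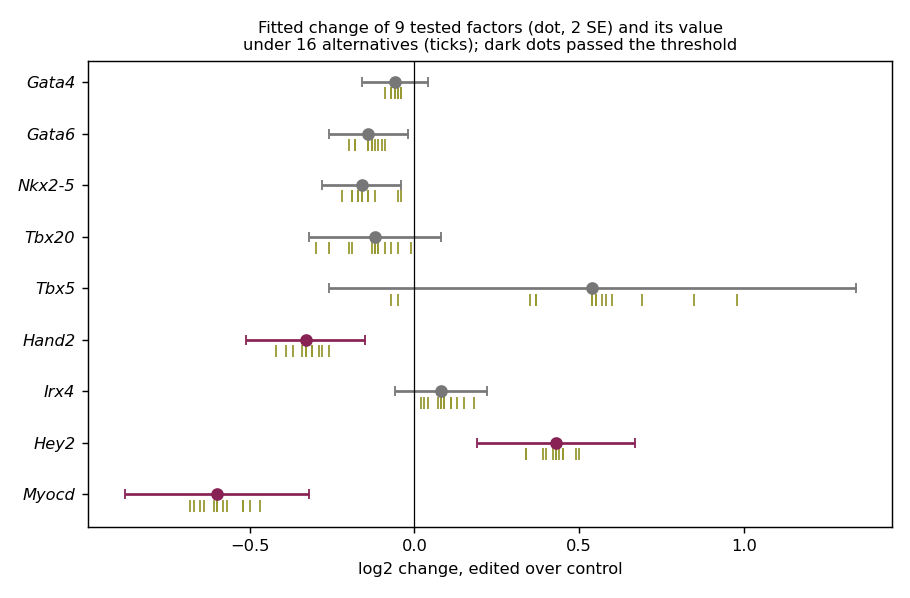
Log2 change, edited over control, of the 9 tested factors: dots with bars of ±2 SE, dark where the adjusted p is under 0.05, and below each the values under 16 alternative fits as ticks. Hand2 and Myocd stay below 0 and Hey2 above 0 under all 16, while Tbx5 runs from -0.07 to 0.98.

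In none of the 9 factors apart from Tbx5 did the sign of the change turn under any of the 16 alternatives. Groups did not overlap for 4 of the 9, Hey2 above and Nkx2-5, Hand2 and Myocd below, beside 29.3% of all tested genes in either direction. With Myl7 as a covariate 0 of the 9 factors passed in edgeR. At an unadjusted p under 0.05 the covariate fit held 0 higher and 1 lower. The share over all genes is not given for that fit, so these counts say nothing about the factors in particular. With all libraries edgeR held 1 higher and 4 lower at that cut-off, beside 1888 higher and 1745 lower of 14879 tested genes. DESeq2 with all libraries called 0 higher and 2 lower, beside 1269 genes in all, and voom 1 higher and 3 lower, beside 2398. With the covariate and with control 2 alone, the log2 changes of Hand2 (-0.29 and -0.37), Hey2 (0.34 and 0.39) and Myocd (-0.50 and -0.52) stayed within 1.5 times of those with all libraries. In the covariate fit 126 genes passed in all, against 1438 with all libraries.

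Genes whose profile over the 6 libraries was most like a called factor were found by the root mean square (RMS) difference of centred log2 levels among 12835 genes. Closest to Hand2 were Ift81 (RMS difference 0.03), an intraflagellar transport gene at 61.6 ± 7.34 CPM in control and 49.0 ± 2.44 CPM in edited libraries, and Gpam (0.04), an enzyme of triglyceride synthesis at 201 ± 18.4 and 166 ± 11.2 CPM. Ece2 (0.046) and Endod1 (0.047) were closest to Hey2, with Endod1 at 15.2 ± 0.862 and 19.96 ± 2.27 CPM. Nearest to Myocd were Myrfl (0.045), at 1.98 ± 0.185 and 1.14 ± 0.207 CPM, and the nuclear receptor Nr4a1 (0.09), at 44.0 ± 4.89 and 31.3 ± 5.96 CPM (SD, n = 3 in each group).

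Among 20 partners and coactivators of these factors, 1 was higher, 1 was lower and the median log2 change was 0.01. Hopx, a homeodomain-only protein, was at 404, 365 and 391 CPM in controls and 297, 276 and 286 CPM in edited hearts. Its log2 change was -0.43 (SE 0.06, adjusted p = 5.72e-04). The groups were far apart, and Hopx passed in all alternatives but the one with control 2 as the only control (adjusted p 0.0774). Mkl2, a myocardin-related coactivator of serum response factor, was higher, at 42.6 ± 0.695 CPM in controls and 52.1 ± 4.61 CPM in edited hearts (SD, n = 3, adjusted p = 0.0175). Mkl2 did not pass when control 1 (0.0673), control 3 (0.101) or edited 3 (0.0776) was left out, nor with Myl7 as a covariate (0.325). Serum response factor itself, Srf, was at 172 ± 11.7 and 163 ± 6.02 CPM (adjusted p = 0.471), and Tcf3, a helix-loop-helix partner of Hand proteins, and Mef2d, a MADS-box factor, did not pass (adjusted p = 0.155 and 0.22).

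Of 20 genes from the same families, 12 were tested, of which 1 was higher and 2 lower, with a median log2 change of -0.06. The Iroquois genes of the Irx1 and Irx2 pair, neighbours of Irx4 in one gene cluster, were the lower ones. Irx2 was at 14.1, 12.7 and 13.0 CPM in controls and 5.33, 8.43 and 5.14 CPM in edited hearts, a log2 change of -1.08 (SE 0.16, adjusted p = 0.00254). Irx1 was at 8.30 ± 1.70 and 4.94 ± 1.05 CPM (SD, n = 3, adjusted p = 0.0224), and did not pass when control 1 (0.0707), control 3 (0.12) or edited 2 (0.058) was left out. Both had edited values wholly below the controls, while those of Irx4 overlapped. Irx3 and Irx5, in the other Iroquois cluster, had edited values wholly above the controls. They were at 39.3 ± 6.14 and 12.3 ± 1.93 CPM in controls and at 50.3 ± 4.12 and 15.3 ± 1.22 CPM in edited hearts, but neither passed (adjusted p = 0.0834 and 0.103).

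Tbx18, a T-box gene of the epicardium, was higher, at 11.8, 11.7 and 11.6 CPM in controls and 14.7, 17.6 and 17.3 CPM in edited hearts (log2 0.49, SE 0.09, adjusted p = 0.00509). Mesothelial and epicardial markers were mixed: 7 of 10, among them Msln, Krt18, Upk1b and Krt19, were higher, and 1, Wt1, was lower (log2 -0.40, adjusted p = 0.0259). Aldh1a2 did not pass (log2 -0.14, adjusted p = 0.266). The 7 higher ones had means of at most 9.88 CPM in edited hearts, against 15.2 CPM for Wt1 and 53.7 CPM for Aldh1a2. No marker was at 0, and the summed level of the 10 was 83.2 to 91.0 CPM in controls and 84.5 to 116 CPM in edited hearts. The marker counts were 2 higher and 0 lower with Myl7 as a covariate, where 126 of all genes passed, against 1438 with all libraries. Their median log2 change was 1.61 with control 2 as the only control, against 1.97 with all libraries. Their part in the level of Tbx18 was not tested. Tbx3, a T-box gene of the conduction system, was at 28.0 ± 1.28 and 24.1 ± 1.01 CPM (adjusted p = 0.0615). With Myl7 as a covariate, Irx1, Irx2 and Tbx18 did not pass (adjusted p = 0.489, 0.0863 and 0.139), nor with control 2 as the only control (0.529, 0.145 and 0.166).

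**Figure D4:**
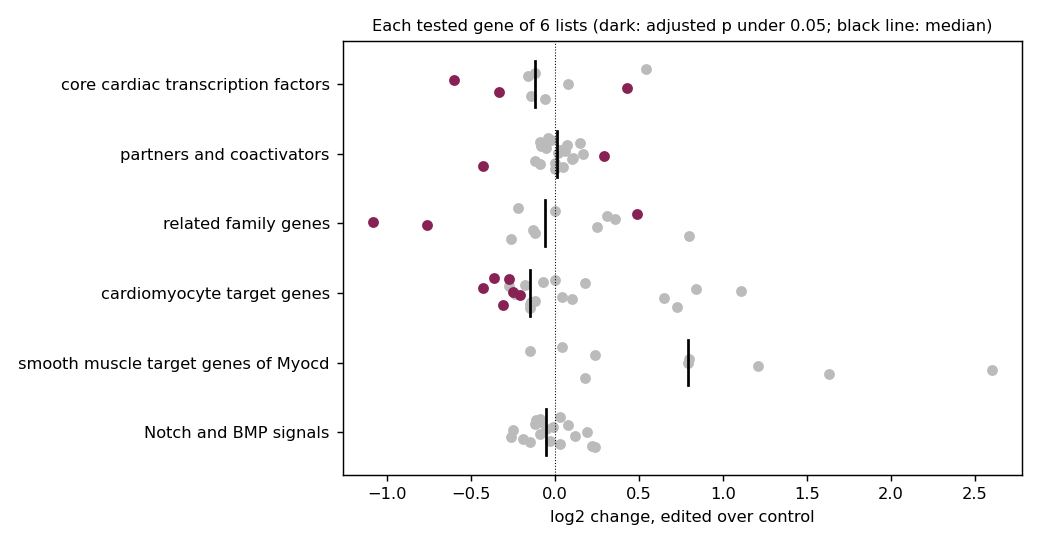
Log2 change, edited over control, of every tested gene in 6 lists, with dark dots for an adjusted p under 0.05 and a black line at the list's median. Dark dots lie on both sides of 0 among the core factors, their partners and their families, and below 0 among the 22 cardiomyocyte target genes.

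Among 22 muscle genes that these factors are known to activate, 6 were lower and 0 higher in edgeR, with a median log2 change of -0.14. Over all tested genes 4.74% were lower and 4.93% higher. At an unadjusted p under 0.05, 12 were lower and 3 higher, beside 1745 lower and 1888 higher of 14879 tested genes. DESeq2 called 2 of the muscle genes higher. The 6 lower in edgeR were Pln, the inhibitor of the calcium pump (log2 -0.43, SE 0.05), the troponins Tnnt2 (-0.36, SE 0.05) and Tnni3 (-0.27, SE 0.05), the pump Atp2a2 (-0.31, SE 0.08), the myosin light chain Myl3 (-0.25, SE 0.06) and the myosin heavy chain Myh6 (-0.21, SE 0.04). Nppb (log2 0.84, SE 0.24), Ankrd1 (0.73, SE 0.18) and Gja5 (0.65, SE 0.25) had edited values wholly above the controls. None of them passed in edgeR (adjusted p = 0.126, 0.0838 and 0.205). Nppa, a target that is also an atrial marker, was at 24.8, 1105 and 15.4 CPM in controls and 850, 516 and 1103 CPM in edited hearts. It was low in controls 1 and 3, where Myl7 was low too. The number of targets lower was 2 without control 3 and 4 without edited 3, where 446 and 728 of all genes passed. It was 13 with voom (2398 genes in all), 10 with DESeq2 (1269) and 10 with no filter (2239). With Myl7 as a covariate it was 1, where 126 genes passed in all, against 1438 with all libraries. Without control 2 another 2 were higher, and 1 was higher without edited 2 and with the replicate block. The list of 8 general heart muscle markers shares Myh6, Tnnt2, Tnni3, Actc1 and Ryr2 with the targets, so the lists are not independent. Of the 8, 4 were lower: Myh6, Tnnt2, Tnni3 and Mb. Among the markers not shared, Mb passed (adjusted p = 0.00269), but Ttn (0.44) and Ckm (0.33) did not. None of the markers was at 0. Their summed level was 70553 to 72821 CPM in controls and 59631 to 63949 CPM in edited hearts. Of these markers 2 were lower without control 3 and 0 with Myl7 as a covariate, fits in which fewer of all genes passed too. Their part in the levels of the factors was not tested.

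Of the smooth muscle genes that Myocd can activate, 9 of 10 were tested and 0 passed in edgeR, with 1 higher and 1 lower at an unadjusted p under 0.05, 2 higher with DESeq2 and 1 lower with voom. Their median log2 change was 0.79, and 0.17 without edited 2, where edgeR called 2 higher and 1 lower. Without control 2, and with the replicate block, edgeR called 1 higher. Cnn1, calponin, was at 1.79, 1.90 and 2.04 CPM in controls and at 5.76, 25.4 and 4.08 CPM in edited hearts, with edited 2 far above the rest (adjusted p = 0.223). Without edited 2, Cnn1 passed, with a log2 change of 1.37 and an adjusted p of 7.42e-04. Edited 2 was also the library with the least Myocd. It had the most of the adipocyte marker Ucp1 too, at 28.2 CPM against at most 2.69 CPM in any other library. The summed adipocyte level was 0.157 to 3.42 CPM in controls and 0.171 to 36.5 CPM in edited hearts. Links between the levels of Myocd, Cnn1 and these markers were not tested. Of 19 tested genes of Notch and BMP signalling, the pathways upstream of Hey2 and Nkx2-5, 0 passed in edgeR, with 1 higher and 2 lower at an unadjusted p under 0.05, 0 with DESeq2 and 1 lower with voom. EdgeR called 2 lower without edited 2, and 1 lower without control 2 or with no filter. Their median log2 change was -0.05. The Notch ligands Jag1 and Jag2 were at 35.7 ± 0.797 and 78.6 ± 5.69 CPM in controls and at 40.6 ± 4.72 and 66.3 ± 8.61 CPM in edited hearts (SD, n = 3, adjusted p = 0.163 and 0.112). Jag2 passed without edited 2 (adjusted p = 0.004). Rbpj was at 51.2 ± 3.19 and 48.0 ± 4.07 CPM (adjusted p = 0.465).

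Markers of the other cell types in a heart mostly did not pass. Of 9 fibroblast markers, Lum was higher (adjusted p = 0.0182), but it did not pass without control 1 (0.0785), control 3 (0.125) or edited 3 (0.103). The summed fibroblast level was 6612 to 8296 CPM in controls and 7779 to 9824 CPM in edited hearts. Of 9 tested conduction markers, Cntn2 was lower (log2 -1.58, SE 0.15), and of 5 tested neuron and Schwann cell markers, Dbh was lower (log2 -0.87, SE 0.14). Dbh did not pass with Myl7 as a covariate (adjusted p = 0.111) or with control 2 as the only control (0.157). In edgeR 0 of 9 endothelial, 6 endocardial, 8 smooth muscle and pericyte, 10 macrophage, 4 lymphocyte, 6 erythroid, 1 adipocyte, 4 skeletal muscle and 1 lung markers passed. At an unadjusted p under 0.05 these lists held 3 higher and 6 lower in all, 4 of the lower ones macrophage genes. Of these lists, DESeq2 called 2 higher and 2 lower in smooth muscle and pericytes and 1 higher in skeletal muscle. Voom called 1 higher and 2 lower in smooth muscle and pericytes and 1 lower in macrophages. Their part in the levels of the 10 factors was not tested.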

How the data were processed

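The authors deposited raw read counts per gene for 6 heart libraries, with gene lengths. The tools named, per the submitters' processing notes, are STAR, featureCounts, cutadapt and FastQC, with build mm10. Versions, settings, strand handling and treatment of multi-mapping reads were not given in the sources used. The table has 2 count columns per library, named after read mates, and 0 values differed between them, so 1 was used. Libraries of a group differed by more than sampling noise, with a chi-square per degree of freedom of 3.95 to 14.41 over genes with at least 20 counts.

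Genes were kept by filterByExpr, scaled by TMM (factors 0.971 to 1.039) and tested with edgeR 4.0.16 (quasi-likelihood, robust, R 4.3.3), group being the only term. P-values were adjusted by Benjamini-Hochberg over 14879 genes. CPM were computed from the deposited counts. Alternatives were DESeq2 size factors, upper-quartile scaling, 2 other filters, DESeq2 1.42.0, limma 3.58.1 voom with quality weights, a replicate block, each library left out, controls 1 and 3 both left out, Myl7 as a covariate, and mitochondrial and haemoglobin genes left out. The fit was tested on simulated data with known changes.

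The factors, the 5 lists of related genes and the 16 cell type lists were chosen with earlier results of these data known. Named from each list were up to 4 genes with the smallest p, besides the 10 factors, Camk2d and, for each called factor, the 2 genes of at least 1 CPM with the nearest profile of log2(CPM + 0.5), predicted genes left out. Other genes named (Srf, Nppa, Nppb, Ankrd1, Actc1, Ryr2, Ttn, Irx3, Irx5, Rbpj, Atp2a2, Wt1, Aldh1a2, Cdh12, Kndc1) were chosen after their values were seen. Intervals at ±2 SE cover the spread between libraries, and limits from counts of 0 cover counting error only.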

Additional observations from a re-analysis of the deposited data

How the results depend on the processing

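The 16 alternative fits gave 0 to 2 factors higher and 0 to 3 lower, against 1 and 2. Without a filter 2 were higher, Hand1 being added with a fitted log2 change of 5.58, and 1 was lower. DESeq2's Wald test called 0 higher. With Myl7 as a covariate, and with controls 1 and 3 both left out, 0 were higher and 0 lower. Leaving out 1 library at a time gave 0 to 1 higher and 0 to 1 lower. The median log2 change of the factors was -0.07 with voom, with the covariate and with those 2 controls left out, and -0.16 to -0.05 with 1 library left out. Genes called in all were 2239 without a filter, 2398 with voom, 126 with the covariate, 169 with the 2 controls left out, and 446 to 1553 with 1 library left out. Tbx5 turned sign with the covariate (-0.07) and without the 2 controls (-0.05), where Camk2d had a log2 change of -0.60 and an adjusted p of 0.0569. For Hand2, Hey2 and Myocd 9, 8 and 8 of 16 alternatives kept the call. The causes were not tested.

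The replicate numbers are shared by the groups, but same-numbered libraries did not deviate together (correlations of 0.02, -0.10 and -0.08 for numbers 1, 2 and 3), and not every library correlated best with its own number. With the replicate block 1 factor was lower, Myocd (adjusted p 0.00176), with Hand2 at 0.0531, 1 was higher, and 1077 genes were called in all. The ratio tests kept their sign with any library left out. Hand1's 18 counts limit any statement on its level.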
